A study of Mus musculus with 8 samples.

Results

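Club and secretory airway genes are represented here by 10 symbols: the secretoglobins Scgb1a1, Scgb3a1 and Scgb3a2, the oxidoreductases Cyp2f2, Cyp4b1 and Cbr2, the receptor subunits and receptors Cckar, Gabrp and Pigr, and the plasma protein gene Hp. They are 10 of 18336 genes with a probe set of their own on either array type, and were taken as every probe set annotated to exactly 1 of these symbols. All 10 had such a probe set on the array used for lung at E18.5, late in the embryonic period, 12 probe sets in total, and 7 had 1 on the older array used at E11.5, when the lung buds begin to branch. Scgb3a1, Scgb3a2 and Gabrp had none there.

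The series held 8 arrays of FVB/N mouse embryos. At E18.5, 3 lungs were of single transgenic embryos, described as the control of an SP-C/MIA cross, and 3 were of double transgenic embryos, described as the overexpressor and called bitransgenic below. Which of the transgenes the single transgenic lungs carried is not given in the sources used here. Each control thus shared its transgene with the bitransgenic lungs, and no lung without a transgene was compared at E18.5. SP-C is surfactant protein C, made by distal lung epithelium, and MIA is a secreted protein first described in melanoma. The E11.5 samples were 1 lung and 1 trachea with no transgene named. Nothing in the labels says whether the samples of a group came from separate litters or whether animals were pooled, so the spread given below is that between arrays.

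Club cells are dome-shaped secretory cells of the airway lining. They release secretoglobins, small dimeric proteins of the airway fluid, and carry cytochrome P450 enzymes that oxidise inhaled chemicals. In the mouse they also serve as progenitors of ciliated cells, and their secretory genes switch on late in gestation. In whole lung RNA, fewer cells of a type and less RNA per cell cannot be told apart.

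The arrays had equal trimmed means, and the medians of the E18.5 arrays ran from 415 to 464 signal units, a linear scale without absolute meaning. The number of arrays limits the precision. Mia rose from 959 ± 194 to 38537 ± 6207 (SD, n = 3 each; limma adjusted p = 1.06e-06), as the labels state. Sftpc, the distal lung marker, was near the top of the range at 84709.7 ± 3667 in controls and 85319 ± 11417 in bitransgenic lungs. Control 3 and bitransgenic 3 stood a little apart: their mean correlations with the remaining arrays were 0.957 and 0.965 across genes, and those of the rest were at least 0.971. The 3' to 5' signal ratio of Actb, a sign of RNA quality, was 1.28 to 1.5 in controls and 1.51 to 1.65 in bitransgenic lungs, higher in every bitransgenic array. The nearest arrays, control 1 at 1.501 and bitransgenic 2 at 1.506, were almost equal. The ratio therefore moved with the group in each E18.5 comparison, and its part in them was not tested beyond the covariate fits given below.

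Of the 10 genes, 1 rose in bitransgenic lungs. This was Cckar, the receptor for the gut and brain peptide cholecystokinin, which rose by about 2-fold. The secretoglobin and enzyme genes had log2 changes from -0.42 to 0.11 and none of them passed the test. Pigr had signals below the filter on low values and was not tested. The comparison was made by limma across 12625 genes, on log2 of the signal plus a pseudocount of 86.4, and a gene passed at a Benjamini-Hochberg adjusted p below 0.05. Over all genes 0.238% passed as higher and 0.436% as lower. Of the 9 members tested 1 was higher, none was lower and 8 did not pass, with 1 higher and 2 lower at an unadjusted p under 0.05. Of all 12625 genes, 572 were higher and 651 lower at that unadjusted level, the background for the same counts of lists below. The groups did not overlap for 3 of the 9, 1 with bitransgenic values higher and 2 with them lower, where 8.86% of all genes were apart upwards and 7.56% downwards. The median log2 change was -0.21 over the 9 members and 0.01 over all genes tested.

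**Figure D1:**
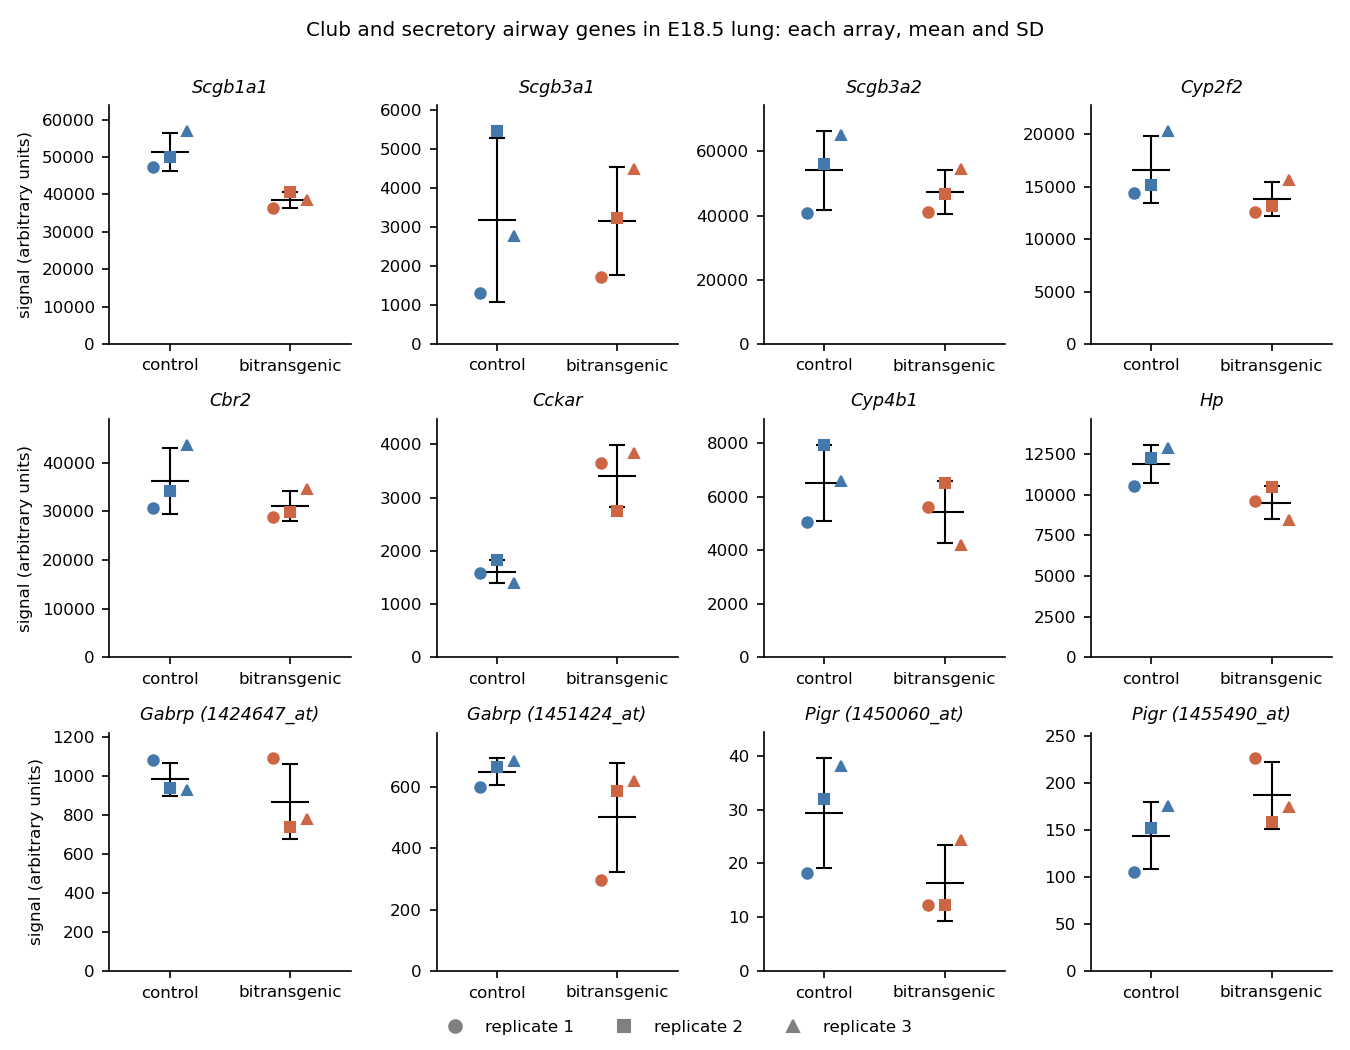
Signal of each of the 12 member probe sets in the 3 control and 3 bitransgenic E18.5 lungs, on linear axes from 0; marker shapes are replicate numbers, which pair no arrays, and bars are the mean and SD. Cckar is higher in every bitransgenic array (2746 to 3846) than in every control (1400.3 to 1834), while Scgb1a1 and Hp lie lower in every bitransgenic array and both Pigr probe sets stay near the bottom of the array range.

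The secretoglobins Scgb1a1 and Scgb3a2 were among the brightest signals on the arrays. Scgb1a1, the club cell secretory protein, read 47255, 49879 and 56934 in controls 1 to 3 and 36224, 40574 and 38454 in bitransgenic lungs 1 to 3. All bitransgenic values were below all controls. The means were 51356 ± 5005 and 38418 ± 2175 (SD, n = 3 each), a difference of -25.2%. On the log2 scale it differed by -0.42 (SE 0.11, 95% interval -0.66 to -0.17, limma adjusted p = 0.185) and did not pass. It was -0.22 when the model held the Actb ratio (adjusted p = 0.894) and -0.37 with array weights, the only 1 of 19 alternative analyses in which it passed (adjusted p = 0.0061). The mean signal was at percentile 99.6 of the array, where the maxima were 101373 to 124807.

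Scgb3a2, a secretoglobin of the smaller conducting airways from early in lung development, read 40897, 56203 and 65133 in controls 1 to 3 against 40974, 46629 and 54479 in bitransgenic lungs 1 to 3. The bitransgenic range lay within that of the controls, and the lowest lungs of both groups were almost equal. The log2 change was -0.17 (SE 0.17, 95% interval -0.57 to 0.22, limma adjusted p = 0.826). Once the model held the Actb ratio it turned to 0.15 (adjusted p = 0.935).

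Scgb3a1, a secretoglobin of the larger airways, had the widest spread of the members. Its signals were 1306, 5471 and 2774 for controls against 1731, 3242 and 4504 for bitransgenic lungs. The highest control was 4.19 times the lowest, and the highest bitransgenic lung 2.60 times the lowest, and the control range took in the whole bitransgenic range. The within-group SD of 0.85 on the log2 scale was larger than that of 99.7% of the genes tested. The log2 change of 0.11 had a 95% interval from -0.95 to 1.16 (SE 0.47, limma adjusted p = 0.97), which leaves room for a 2.24-fold rise and for a fall to 0.519 of the control level. Its sign turned without control 1 (-0.40) and without bitransgenic 3 (-0.19), and it was 0.60 without control 2. Of 12 further symbols listed for the secretoglobin family, Scgb1b27 was the 1 tested, and it differed by -0.03 on the log2 scale (limma adjusted p = 0.987).

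Among the enzyme genes, Cyp2f2 and Cbr2 had the same order of arrays within each group as Scgb3a2, though not across the groups. Cyp2f2, the cytochrome P450 that makes club cells sensitive to naphthalene, read 14443, 15153 and 20317 in controls 1 to 3 and 12626, 13148 and 15686 in bitransgenic lungs 1 to 3. The bitransgenic mean of 13819.8 ± 1637 lay below the control mean of 16638 ± 3206 (SD, n = 3 each), with overlap. The log2 change was -0.26 (SE 0.16, 95% interval -0.61 to 0.09, limma adjusted p = 0.688).

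Cbr2, a carbonyl reductase abundant in mouse lung, read 30576, 34262 and 43696 in controls, and 28805, 29793 and 34589 in bitransgenic lungs. Control 3 was again the highest of the 6 arrays. The log2 change was -0.21 (SE 0.15, 95% interval -0.54 to 0.12, limma adjusted p = 0.732). In the model with the Actb ratio, Cyp2f2 and Cbr2 moved to log2 changes of 0.01 and 0.05, on the other side of 0.

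Cyp4b1, a P450 of fatty acids and foreign compounds found in lung epithelium, read 5063, 7911 and 6588 in controls, and 5602, 6495 and 4202 in bitransgenic lungs. Its log2 change was -0.26 (SE 0.20, 95% interval -0.71 to 0.20, limma adjusted p = 0.766). It was -0.43 without control 1, -0.40 without bitransgenic 2, -0.11 without control 2, and -0.09 without bitransgenic 3. A model holding the Actb ratio gave -0.05. Here control 2 was the highest array and bitransgenic 3 the lowest, an order unlike that of Cyp2f2 and Cbr2.

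The promoters of 6 members were in the RefSeq table (build GRCm38.p6), each as 250 bases before and 50 after the gene start. Those of Cyp2f2 and Cbr2 are shown because these genes shared their order of arrays within each group, and that of Scgb3a1 because its signal varied most. Capitals mark matches on either strand to 4 motifs: the TATA box (TATAAA), a FOXA core (TGTTTNC), an NKX2 core (CAAGTG) and a C/EBP site (TTGCNNAA). FOXA proteins, NKX2-1 and C/EBP alpha are transcription factors of airway epithelium. The windows lie at chr7:27119705-27120004, plus strand, at chr11:120731972-120732271, minus strand, and at chr11:49663345-49663644, plus strand, in that order, and are printed 5′ to 3′ along the gene.
Cyp2f2: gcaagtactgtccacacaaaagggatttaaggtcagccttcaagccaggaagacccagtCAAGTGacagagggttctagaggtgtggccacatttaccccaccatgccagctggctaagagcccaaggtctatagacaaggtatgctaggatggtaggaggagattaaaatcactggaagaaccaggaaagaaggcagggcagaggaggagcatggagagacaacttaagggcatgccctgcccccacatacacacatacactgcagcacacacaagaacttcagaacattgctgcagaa
Cbr2: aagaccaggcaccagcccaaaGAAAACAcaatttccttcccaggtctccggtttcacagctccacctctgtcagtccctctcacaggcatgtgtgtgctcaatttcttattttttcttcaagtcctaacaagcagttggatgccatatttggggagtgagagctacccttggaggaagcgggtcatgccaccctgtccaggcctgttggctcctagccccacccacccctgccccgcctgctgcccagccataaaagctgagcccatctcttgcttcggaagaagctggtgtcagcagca
Scgb3a1: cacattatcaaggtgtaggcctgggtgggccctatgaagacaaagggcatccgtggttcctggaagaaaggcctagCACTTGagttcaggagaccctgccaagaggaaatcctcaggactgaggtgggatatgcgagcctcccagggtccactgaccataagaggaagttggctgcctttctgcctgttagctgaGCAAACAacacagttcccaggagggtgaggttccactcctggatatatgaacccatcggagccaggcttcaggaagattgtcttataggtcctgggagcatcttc
Cyp2f2 held 1 NKX2 match, Cbr2 1 FOXA match, and Scgb3a1 1 match to each of these 2 motifs, none overlapping another. Of the 6 member windows, 4 held any match, 3 the FOXA core, 2 the NKX2 core and none the TATA or C/EBP letters. Among all 32851 windows of the same length 45.1% held any of them, 20.5% the FOXA core, 13.6% the NKX2 core, 13.6% the TATA letters and 10.8% the C/EBP letters. The windows of Gabrp and Cyp4b1 held no match. A match is a stretch of letters and was not tested for binding.

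Cckar was the member that changed. Its single probe set read 1588, 1834 and 1400.3 in controls 1 to 3 and 3640.1, 2746 and 3846 in bitransgenic lungs 1 to 3. Every bitransgenic lung was above every control, and the gap between the nearest arrays, control 2 and bitransgenic 2, was wider than the span of the controls. The means were 1607 ± 217 and 3411 ± 585 (SD, n = 3 each). The log2 change was 1.04 (SE 0.17, limma adjusted p = 0.0308), a 2.06-fold rise with a 95% interval of 1.58 to 2.68. It ranked 59 of 12625 by p and 26 by size of rise.

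The direction held in all 19 alternative analyses, with log2 changes of 0.73 to 1.18, but the call lay close to its threshold. It passed in 12 of them. It was lost without control 1 (adjusted p = 0.0664), without control 2 (adjusted p = 0.0871), without bitransgenic 1 (adjusted p = 0.162) and without bitransgenic 3 (adjusted p = 0.147). It was also lost with no filter on low values (adjusted p = 0.0565) and with no intensity trend (adjusted p = 0.0574). In the model that held the Actb ratio the log2 change was 0.73 and did not pass (adjusted p = 0.65). Without control 3 and bitransgenic 3 together it was 0.86 (adjusted p = 0.0446).

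The summed signals of the 9 tested members overlapped, at 152750 to 210608 in controls and 140310 to 164976 in bitransgenic lungs. Sums also overlapped for the drug-metabolising, acute phase and immunoglobulin transport lists discussed elsewhere. Those of 16 mesenchymal markers overlapped too, at 324415 to 373030 against 305150 to 342662. The other sums given in this paragraph did not overlap between the groups except where stated. A sum is weighted to its brightest genes, and how often sums of any genes are apart was not tested. Among secretory cells, 24 further club cell genes summed to 234796 to 246357 in controls and 252583 to 263866 in bitransgenic lungs. Changes were positive for 12 of them and negative for 12, where 6644 of all 12625 genes tested had positive and 5981 negative changes. The median log2 change of the 24 was 0.00. Aldh1a7, a bright gene of the club cell list, rose from a mean of 16351 to 28002. Other bright genes of that list had higher or lower means, so the sum does not rest on Aldh1a7 alone. The sums of 12 goblet and mucous cell genes were 76622 to 79778 against 61768 to 67415. Yet changes were positive for 7 of these and negative for 5, with a median of 0.08. The bright genes Ano1 and Sec14l3 had means of 23968 and 36208 in controls against 15117 and 28823 in bitransgenic lungs. Among distal and vascular cells, 19 alveolar type I markers summed to 366887 to 400650 against 283584 to 317713, with 4 lower by the test, and 12 endothelial markers to 108710 to 131120 against 80770 to 85767, with 1 lower by the test, Car4. The summed signal of 24 pan-epithelial genes was 142801 to 157270 in controls and 164510 to 174374 in bitransgenic lungs. Changes were positive for 18 of the 24 and negative for 6, with a median log2 change of 0.21. Of the 24, 1 was higher by the test, Cdh16, at 5263 to 6342 in controls and 16407 to 19144 in bitransgenic lungs. The summed signal of 21 alveolar type II markers was 718956 to 808415 against 350652 to 408515, with 12 lower and none higher. That of 27 ciliated cell markers overlapped, at 53622 to 62331 against 56451 to 61792, and none passed (limma, 1 higher at an unadjusted p under 0.05). The neuroendocrine list, another airway type, summed to 7222 to 8499 in controls and 5804 to 6513 in bitransgenic lungs over 6 tested genes. Changes were positive for 5 of the 6, with a median log2 change of 0.10. The other gene, Ddc, was lower by the test, at 2678 to 2976 in controls and 640 to 1027 in bitransgenic lungs. The part of these cell types in the change of Cckar was not tested.

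The genes whose log2 values followed Cckar most closely over the 6 arrays were Fam13a, Wfdc3 and Gm2a, with Pearson correlations of 0.994, 0.993 and 0.991. This is a description of 6 points that share the group difference. None of these genes passed the test, with log2 changes of 0.39, 0.56 and 0.15 (limma adjusted p = 0.326, 0.314 and 0.762). Of the signalling genes listed beside Cckar and Gabrp, 19 of 23 were on the array and 3 were tested. These were Gabbr1, Gabrb2 and Abat, with log2 changes of 0.30, 0.22 and -0.09, and none passed (limma; none at an unadjusted p under 0.05).

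Gabrp encodes the pi subunit of the GABA type A receptor, found mostly in epithelia. It had 2 probe sets that differed in their spread. The brighter read 1079.9, 939 and 927 in controls and 1090.4, 736 and 776 in bitransgenic lungs, a log2 difference of -0.18 (SE 0.18, 95% interval -0.59 to 0.23, limma adjusted p = 0.827). It was -0.34 without bitransgenic 1, -0.11 without control 1, -0.12 without bitransgenic 3, and -0.08 without bitransgenic 2. A model holding the Actb ratio gave -0.40. The dimmer read 600.3, 665 and 686 against 297, 586 and 621. Bitransgenic 1 was the highest array on the brighter probe set and the lowest on the dimmer, so the 2 disagreed on that array. In a fit with every probe set as a row of its own, the dimmer differed by -0.38 on the log2 scale (limma adjusted p = 0.707).

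Hp, the gene of haptoglobin, which binds free haemoglobin and is an acute phase protein, was lower in every bitransgenic lung than in every control. Its signals were 10542, 12248 and 12839 in controls and 9618, 10467 and 8439 in bitransgenic lungs, and the nearest arrays, control 1 and bitransgenic 2, were almost equal. The means of 11876 ± 1193 and 9508 ± 1018 (SD, n = 3 each) gave a log2 change of -0.32 (SE 0.13, 95% interval -0.62 to -0.02), which did not pass over all genes (limma adjusted p = 0.481). It was -0.13 with the Actb ratio in the model and -0.18 without control 3 and bitransgenic 3 together. Among 14 tested genes of the acute phase and interleukin-6 response, 1 passed, Lcn2, a lipocalin also made by epithelium, which fell by 2.70 on the log2 scale (limma adjusted p = 0.0232). That call was lost without control 2 (adjusted p = 0.107), control 3 (adjusted p = 0.0516) or bitransgenic 3 (adjusted p = 0.101), and its log2 change was -1.67 with the Actb ratio in the model (adjusted p = 0.462). Next by p came the factor gene Cebpb at 0.33, the interleukin-6 receptor subunit gene Il6st at 0.31 and the endotoxin-binding protein gene Lbp at -0.48 on the log2 scale, none passing. The median of the list was -0.12.

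Pigr, the receptor that carries polymeric immunoglobulins across epithelium, was measured by 2 probe sets that both missed the filter on low values (a mean log2 value equal to a signal of 251). The first read 18.1, 32.0 and 38.0 in controls and 12.3, 12.3 and 24.4 in bitransgenic lungs. The other read 105, 152 and 175 against 226, 159 and 175. The 2 probe sets differed in direction at signals this low, and the groups overlapped on both. No difference in Pigr was measurable at these signals. Of 9 tested genes listed for immunoglobulin transport, none passed (limma; none at an unadjusted p under 0.05), with Ighm at 0.41, Xbp1 at -0.11, Cd79b at 0.16 and Mzb1 at 0.20 on the log2 scale.

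**Figure D2:**
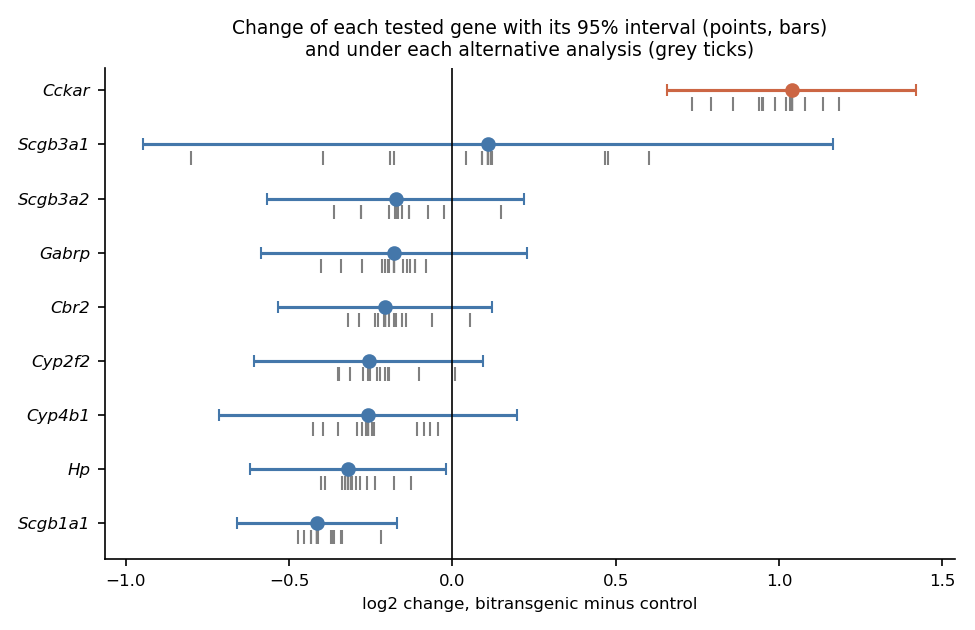
Log2 change (bitransgenic minus control) of the 9 tested members from the limma fit, with 95% intervals as bars and the values under the 19 alternative analyses as grey ticks. Cckar is the 1 gene past the threshold (orange), with all ticks between 0.73 and 1.18, while the ticks of Scgb3a1 run from -0.80 to 0.60 across 0.

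The order of arrays within each group was set beside that over all genes. Control 1 was the lowest control for 7 of the 9 tested members, where it was the lowest for 37.9% of all genes, and control 3 the highest for 5, where it was so for 45.1%. Bitransgenic 1 was the lowest for 5 and bitransgenic 3 the highest for 5, against 34.3% and 46.4% of all genes. The counts for control 3 and bitransgenic 3 as highest were near the shares over all genes and are not a result about the members. Scgb3a2, Cyp2f2 and Cbr2 were lowest in the first and highest in the third array of both groups, where the numbers are names alone and pair no arrays. On the log2 scale, control 3 lay above its group mean by 0.29 for Scgb3a2, 0.30 for Cyp2f2 and 0.29 for Cbr2, and by 0.15 for Scgb1a1. Control 3 also had the lowest Actb ratio, 1.28, and the highest median signal of the controls, 460.2, and the part of either was not tested. Without it, the log2 changes of Scgb3a2, Cyp2f2 and Cbr2 were -0.03, -0.10 and -0.06, and without control 1 they were -0.36, -0.35 and -0.32. Cckar and Gabrp ran the other way in the controls, with control 3 the lowest.

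**Figure D3:**
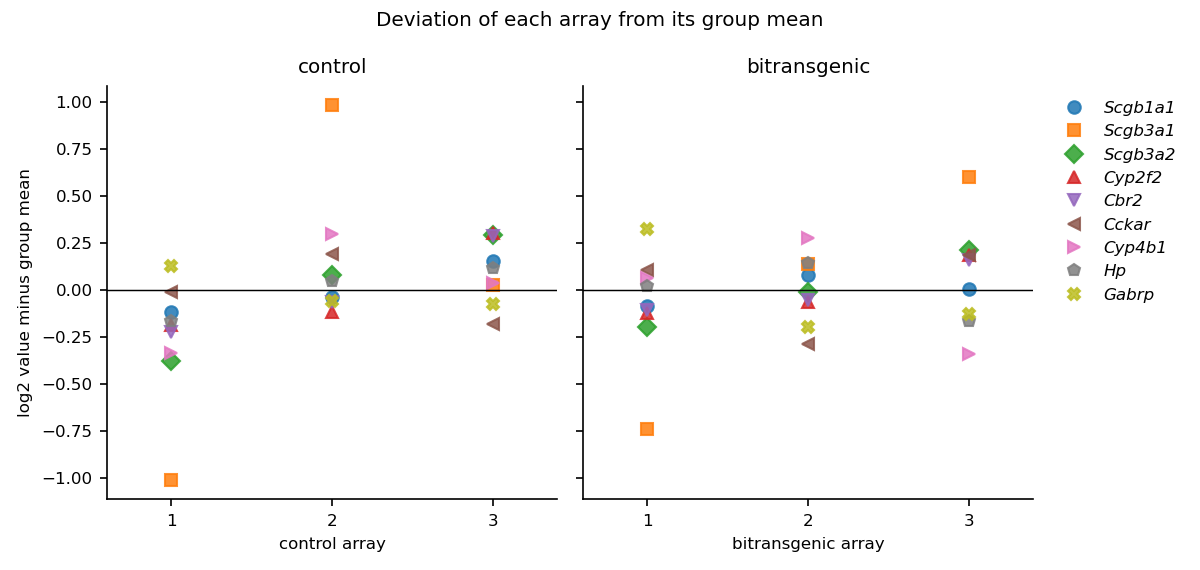
Deviation of each array from its group mean (log2) for the 9 tested members, controls on the left and bitransgenic lungs on the right. Scgb3a1 deviates most, from -1.01 to 0.98 in the controls, and Scgb3a2, Cyp2f2 and Cbr2 lie below 0 in array 1 and above 0 in array 3 of both groups.

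Other genes of club cells moved in both directions. Of 24 tested genes in a list of further club cell genes, 1 rose, 1 fell and 22 did not pass, with a median log2 change of 0.00. Aldh1a7, an aldehyde dehydrogenase, rose from 16351 ± 506 to 28002 ± 818 (SD, n = 3 each), a log2 change of 0.77 (limma adjusted p = 0.00904). It passed in 14 of 19 alternatives and kept its sign in all of them, and did not pass without control 2 (adjusted p = 0.0886) or without any 1 of the bitransgenic lungs (adjusted p = 0.0513 to 0.0665), nor with the Actb ratio in the model (adjusted p = 0.157). Aox3, an aldehyde oxidase, fell from 2353 ± 405 to 947 ± 250.3 (SD, n = 3 each), a log2 change of -1.26 (limma adjusted p = 0.0351). Its call was lost in 8 of 19 alternatives, among them the fits without control 2, control 3, bitransgenic 1 and bitransgenic 3 (adjusted p = 0.0574 to 0.158) and that with the Actb ratio (adjusted p = 0.611). Ldhb, a lactate dehydrogenase subunit gene, and Nupr1 had log2 changes of 0.52 and -0.67, without passing.

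Drug-metabolising oxidoreductases, the wider class of Cyp2f2, Cyp4b1 and Cbr2, had 2 of 31 tested genes lower, none higher and 29 that did not pass, with a median of 0.02. Besides Aox3 this was Cyp4v3, a fatty acid hydroxylase, from 2329 ± 417 to 1018 ± 241 (SD, n = 3 each), a log2 change of -1.14 (limma adjusted p = 0.0436) that passed in 10 of 19 alternatives and in 1 of the 6 fits that left out an array, that without control 3 (adjusted p = 0.0247). Leaving out any other array gave an adjusted p of 0.0901 to 0.195. For Cyp2e1 and Aox1, with -0.89 and -0.58, the test was not passed.

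Goblet cells, the mucus-making secretory cells of the airway, had few marker genes above the filter. Of 25 genes of the list on the array, 12 were tested and none passed (limma; 2 higher and 2 lower at an unadjusted p under 0.05). Muc5ac, Agr2 and Spdef missed the filter and were not tested. Mean signals in controls and bitransgenic lungs were 75.7 and 99.9 for Muc5ac, and 131 ± 72.3 and 296 ± 76.4 for Spdef (SD, n = 3 each). The brighter Agr2 probe set read 234 ± 120 and 290 ± 109. Muc5b, the main mucin of mouse airways, read 349 ± 353 in controls and 525 ± 262 in bitransgenic lungs (SD, n = 3 each). Ano1, a calcium-activated chloride channel, had the smallest p of the list and a log2 change of -0.66, from 23968 ± 2031 to 15117 ± 1677 (SD, n = 3 each; limma adjusted p = 0.0576). It was followed by Galnt12 at 0.61, Sec14l3 at -0.32 and the membrane mucin gene Muc4 at 0.56 on the log2 scale. The basal cell markers Krt5, Trp63 and Krt14 also missed the filter.

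None of 27 tested genes in a list of airway epithelial transcription factors and Notch genes passed (limma; 4 higher and 3 lower at an unadjusted p under 0.05), and the median was 0.12. Foxa1, a forkhead factor that acts on secretory genes, had the smallest p, with 13072 ± 2988 in controls and 23156 ± 756 in bitransgenic lungs (SD, n = 3 each), a log2 change of 0.85 (limma adjusted p = 0.0659). Cebpa, a factor of epithelial maturation, had -0.87 and the Notch ligand gene Jag2 had -0.86 (limma adjusted p = 0.143 and 0.224), followed by Tfcp2l1 at -0.77. Sox2 and Nkx2-1, of proximal airway and of the whole lung epithelium, had 0.22 and 0.12 (limma adjusted p = 0.824 and 0.896), and Foxj1, the regulator of motile cilia, -0.03 (limma adjusted p = 0.98).

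**Figure D4:**
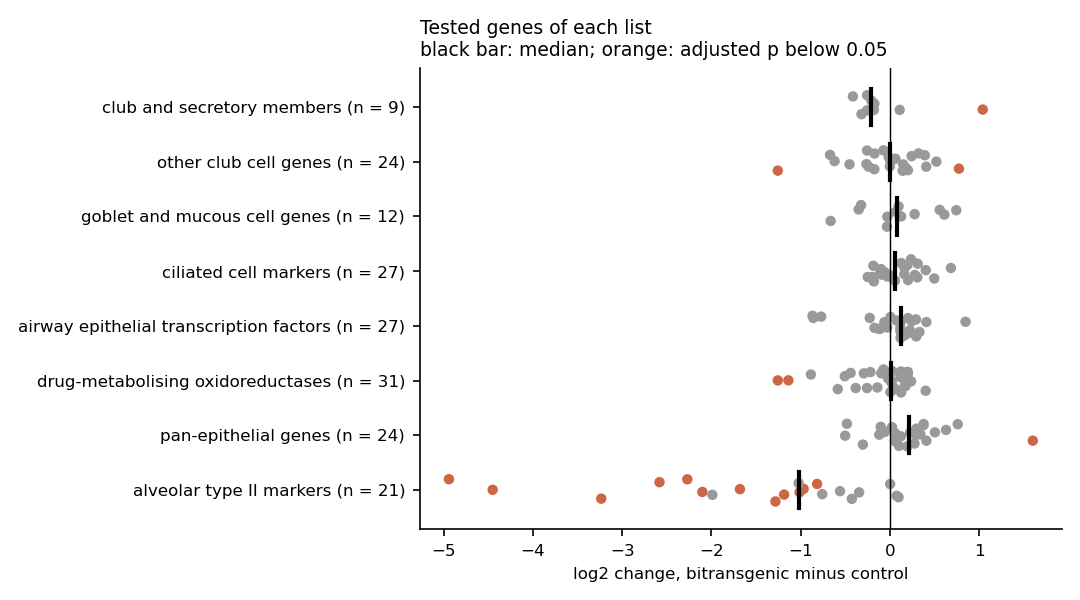
Log2 change (bitransgenic minus control) of every tested gene in the lists named, 1 point per gene spread vertically for visibility; black bars are medians and orange points passed the limma test. The 9 members have a median of -0.21 and 1 orange point, the 24 other club cell genes a median of 0.00 with 1 orange point on each side, and the 21 alveolar type II markers a median of -1.02 with 12 orange points.

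At E11.5, before the airway secretory cells have matured, 4 of the 10 members could be compared between lung and trachea. With 1 array per tissue there was no replicate and no test. Ratios were taken of the signal plus a pseudocount of 84.3, and a gene was apart when they exceeded 2-fold with the higher signal above the table's median of 543. Of 5114 genes compared 3.42% were apart. Of the 7 members on that array 6 passed the filter on low values, 4 had a signal above the median, and none of the 4 was apart. With so few members compared, that count is near the share over all genes and is not a result about them. The same arrays did show Sox2 at 1016 in lung and 4259.6 in trachea, and Sftpc at 1503 and 257.

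Cckar read 694 in lung and 488 in trachea, a log2 ratio of 0.44. That of Cyp4b1 was 0.05, from 875 and 843, on a probe set of the kind that can share probes with related sequences. A further probe set annotated to both Cyp4b1 and its pseudogene was left out by the rule. Hp read 944 and 971 (log2 ratio -0.04) and Pigr 1585 and 1492 (0.08). Both tissues were thus nearly equal for these 3 genes.

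The club cell genes proper were dim in both tissues. Scgb1a1 read 327 in lung and 303 in trachea and Cyp2f2 252 and 434, all below the median of the table, with log2 ratios of 0.09 and -0.62. Cbr2 read 148 and 74.8, missed the filter, and was near the pseudocount in trachea (log2 ratio 0.54). Signals on the older array come from other probe sets and cannot be set against those at E18.5. This holds for Pigr as well, which was above the median at E11.5 and below the filter at E18.5.

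**Figure D5:**
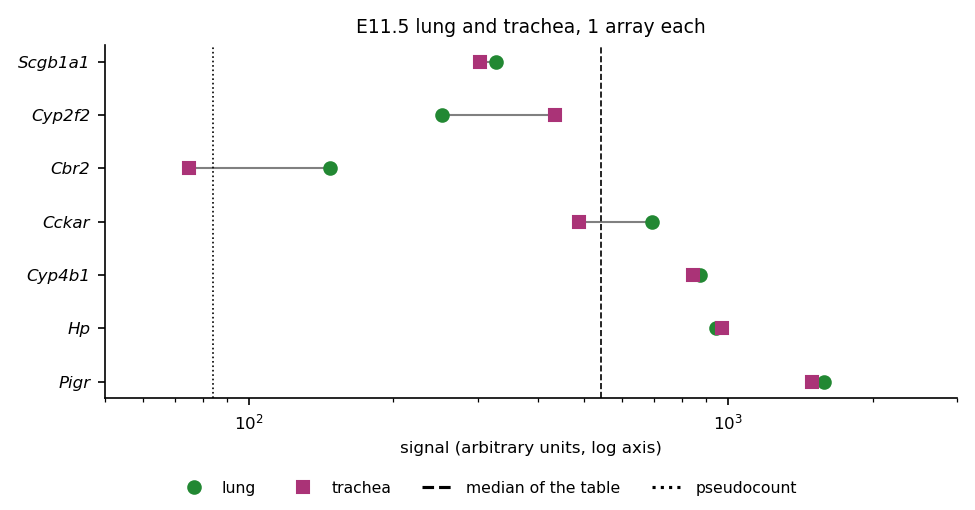
Signal of the 7 members on the E11.5 array in lung (circles) and trachea (squares), on a log axis, with the table median of 543 dashed and the pseudocount of 84.3 dotted. Cyp4b1, Hp and Pigr are nearly equal in both tissues above the median, and Scgb1a1, Cyp2f2 and Cbr2 lie below it in both.

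Of the other lists at E11.5, 1 of 10 compared further club cell genes was apart, Aldh1a7, with 642 in lung and 163 in trachea (log2 ratio 1.55). This is the gene that also rose in the bitransgenic E18.5 lungs, on another array type. Of 16 transcription factor genes compared, Cebpb (log2 ratio 1.80) and Tfcp2l1 (1.04) were apart towards lung, and Sox2 (-1.98) and the Notch target Hey1 (-1.83) towards trachea. Among 3 goblet genes compared, Clca3a1 was apart towards trachea, with 1348 in lung and 2859.6 in trachea. None of 10 drug-metabolising genes was apart. The list median was 0.07 for the 4 members compared and -0.01 over all genes compared.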

How the data were processed

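The authors' deposited tables hold intensity, a linear signal per probe set and array, made with MAS5 per the submitters' processing notes, with no version given. The values show a 2% trimmed mean of 1500 on each array. Control probe sets (64 and 66) were left out, and genes were named from the array annotation, by probe sets with 1 symbol.

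Values were log2(signal + the 20th percentile of the table). The probe set with the highest mean stood for a gene, kept when that mean reached the 40th percentile. The E18.5 groups, 3 arrays each, were fitted in R 4.3.3 with limma 3.58.1 (lmFit, eBayes with an intensity trend, two-sided, adjusted over all 12625 genes). The fit was also run on simulated arrays with independent errors. These held no effect shared by the genes of an array, so that run does not bear on such effects here. Exact permutation of 3 against 3 cannot go below 0.1. With 1 array per tissue, E11.5 had no test. The median log2 change of all genes stayed within 0.03 of 0 under every alternative.

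The members, gene lists and alternatives were chosen with earlier results of these data known. All 10 members were named, then from each list the genes past the threshold and up to 4 with the smallest p (E11.5: the largest ratio), tissue checks, and the 3 genes most correlated with a member past the threshold. Muc5b, Agr2, Spdef, Trp63 and Krt14 were named outside this rule, as defining markers of other cell types. Promoters came from RefSeq (GRCm38.p6). Replicate numbers follow sample order and pair no arrays: controls 1, 2 and 3 are numbered 2, 3 and 1 in their titles, and bitransgenic lungs 1, 2 and 3 are numbered 4, 5 and 6.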

Additional observations from a re-analysis of the deposited data

How the results depend on the processing

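The counts of all genes higher and lower, 30 and 55, were 608 and 731 with array weights, whose estimation stopped before convergence, 4 and 16 in the model with the Actb ratio, and 71 and 116 without control 3 and bitransgenic 3 together, an alternative chosen after seeing the data. The lower count was 32 with no filter and 36 with no intensity trend, and leaving out 1 array gave 6 to 46 higher and 16 to 51 lower. Of the members, 0 were higher with no filter (Cckar adjusted p = 0.0565), with no intensity trend (0.0574) and with the Actb covariate, and 0 to 1 without 1 array. With array weights 1 member was lower, Scgb1a1. Scgb3a1 changed sign with array weights (-0.80), without control 1 (-0.40), without bitransgenic 3 (-0.19) and without control 3 and bitransgenic 3 together (-0.18), and ranged from -0.40 to 0.60 over the fits without 1 array. With the Actb covariate Scgb3a2 (0.15), Cyp2f2 (0.0085) and Cbr2 (0.052) did. The cause of these shifts was not tested. At E11.5 the 175 genes apart numbered 95 after the pseudocount was multiplied by 4, and 78 when the filter stood at percentile 60, with 0 members apart throughout. No paired analysis was made because the labels name no litter and no pairing. The titles number the E18.5 arrays 1 to 6 across both groups, which does not show whether any were paired.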
